A study of Mus musculus with 283 samples.

Results

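T11-Apobec is a transplanted mouse mammary tumour model of triple-negative breast cancer, and its tumours under combined checkpoint blockade were compared between 7 and 3 days. The members were the RNA-seq libraries whose labels give the model T11-Apobec, antibodies against PD1 and CTLA4, and a time of 3 or 7 days. They numbered 8 of the 283 samples of the series, 4 mice at each time, and 264 libraries of the series shared the same expression table. Tumours were grown orthotopically in syngeneic hosts, mice were assigned to arms at a diameter of 5 mm, and the antibodies were injected into the peritoneum, anti-PD1 at 10 mg per kg and anti-CTLA4 at 125 ug. The same model without antibody, 4 mice labelled 3 days and 4 labelled 7 days, served as the untreated arm. The table's own header calls the 4 untreated mice at 3 days pretreatment, and this bears on every value of the untreated step. Further models under the same therapy were set beside it: the line T11 with 4 mice at each time, T11-UV with 3 and 4 mice, and KPB25L, another mammary tumour line, with 5 and 4 mice. The labels class T11 as resistant to therapy and T11-Apobec, T11-UV and KPB25L as sensitive. The labels used here do not say how T11-Apobec was derived or whether it is a single clone, and they give no age, sex or host strain.

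PD1 and CTLA4 are inhibitory receptors of T cells, and antibodies against them release T cells from this restraint. T cells that recognise a tumour can then divide, kill through perforin and granzymes, and release interferon gamma, which raises antigen presentation and chemokines in tumour and myeloid cells. Macrophages are common in mammary tumours, where they take up dead cells and break down their proteins, lipids and iron in lysosomes. APOBEC enzymes deaminate cytosine in DNA and can add mutations to a tumour.

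Expression was a gene signal, which the authors had brought to 1 common upper quartile in each library, analysed as log2(signal + 1). All levels and differences below are on that scale, and low genes have their change understated by it. Estimated depth, in units of 1e6 reads, was 46.2 to 51.9 in the treated libraries at 3 days and 36.5 to 67.5 in those at 7 days. Of the treated tumours, replicate 1 at 7 days stood apart on the first principal component, at 128.10 against -70.92 to 26.14 for the other 7, and it had the fewest reads. Per the header, all 4 treated libraries at 3 days came from 1 lane of 1 flow cell and all 4 at 7 days from 1 lane of another, so time and flow cell cannot be told apart. Both arms used this pair of flow cells, so the comparison of the treated with the untreated step sets like against like in that respect. Lanes differed between the arms. Treated libraries were on lane 5 at 3 days and lane 4 at 7 days, and untreated libraries on lanes 3 and 6. Within a time, arm and lane thus cannot be told apart. The vimentin gene Vim, a mesenchymal marker, was at 17.24 to 17.74 in the 8 treated tumours. Over 50 genes that mark the T11 line against KPB25L, the mean level was 7.95 to 8.33 at 3 days and 7.38 to 8.43 at 7 days, with replicate 1 at 7 days lowest. Genes of skeletal muscle were high in treated replicate 3 at 3 days and treated replicate 1 at 7 days, with summed signals of 72734 and 63647 against 433 to 986 in the other 6. In untreated mice these sums were 1009, 10647, 316885 and 1672 at 3 days and 3346, 3764, 5747 and 1198 at 7 days. The part of muscle content in the differences below was not tested.

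Between 3 and 7 days of therapy 149 of 20848 genes tested changed (limma, Benjamini-Hochberg adjusted p under 0.05), which is 0.715% of them. Of these, 115 were higher at 7 days, 0.552% of the genes tested, and 34 were lower, 0.163%. The higher genes included 5 of 17 on the list of lysosomal proteins, the ferritin gene Fth1, the cholesterol exporter gene Abca1, the myeloid receptor gene Clec4d, and Il7r, Cxcr6 and Cxcl13. The median difference over all genes tested was -0.0044, and 2171 genes had an unadjusted p under 0.05. Leaving out single mice changed the count: it was 36 without replicate 3 and 22 without replicate 4 of 3 days, and 45 without replicate 1 and 23 without replicate 3 of 7 days. The other 4 fits that left out a mouse gave 136 to 173 genes. In all 8 of these fits 15 of the 149 genes were called, and all 15 were higher at 7 days. The genes Samd8, Creg1, Dmxl2, Nceh1, Pgap1, Dnmt3a, Rnf128 and Clec4d were among them. P-values, and the SE given after each ±, use the spread between mice pooled over 47 groups of the series. The fits that left out a mouse pooled it in the same way. With the spread taken from the 8 treated libraries alone 6 genes were called, Acp5, Atoh8, Cd8a, Gm10774, Lyz1 and Rtp4, and 3 of them were among the 149.

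Creg1, which encodes a secreted and lysosomal glycoprotein, was among the firmest changes by the pooled spread. Its levels were 11.86, 13.19, 11.78 and 11.46 at 3 days and 14.68, 12.94, 14.28 and 13.51 at 7 days. Replicate 2 was the highest mouse at 3 days and another replicate 2 the lowest at 7 days, and by them alone the groups overlapped. The difference was 1.78 ± 0.26 (pooled SE, groups of 4 and 4), 3.43-fold, with a limma adjusted p of 1.41e-06, and it ranged from 1.502 to 2.150 when single mice were left out. Within the groups compared, Creg1 had a standard deviation of 0.76 at 3 days and 0.78 at 7 days. With the spread of the 8 treated libraries alone its adjusted p was 0.12. Creg1 lies on chromosome 1 at 165763746 to 165775308 (GRCm38, plus strand). The same order of mice was seen in Ctsd, the lysosomal protease cathepsin D, at 15.70, 16.58, 15.69 and 15.45 and then 18.30, 16.19, 17.41 and 16.74. Ctsd rose by 1.30 ± 0.32, 2.46-fold, with a limma adjusted p of 0.020. That call was lost without replicate 1, 3 or 4 of 3 days or replicate 1 or 3 of 7 days, where differences over single omissions ran from 0.92 to 1.62. Fth1, the heavy chain of the iron store ferritin, was at 17.30, 18.58, 17.29 and 17.01 at 3 days and at 19.69, 17.90, 19.30 and 18.71 at 7 days. It rose by 1.35 ± 0.32, 2.56-fold (limma adjusted p = 0.014), and was lost without replicate 3 or 4 of 3 days or replicate 1 or 3 of 7 days, with differences of 1.09 to 1.70. Fth1 has many near-identical pseudogenes, so its value is uncertain where reads could be split between them.

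Treated groups that did not overlap were seen in 9.86% of all genes tested, and the rule for leading genes required it. Acp5, the tartrate-resistant acid phosphatase of macrophages and osteoclasts, was at 9.54, 10.03, 9.38 and 9.14 at 3 days and 11.94, 11.60, 11.21 and 11.49 at 7 days. It rose by 2.04 ± 0.52, 4.11-fold (limma adjusted p = 0.029), and was called in 1 of 8 fits that left out a mouse. Lyz2, a lysozyme of myeloid cells, was at 16.89, 17.67, 17.64 and 16.85 and then at 18.68, 18.48, 18.66 and 18.63, so the 4 mice at 7 days lay within 0.2 of each other. Lyz2 rose by 1.35 ± 0.33, 2.55-fold (limma adjusted p = 0.021). Settings in which this call was lost included quantile normalization and the fits without replicate 4 of 3 days or replicate 1 or 3 of 7 days. The near-identical gene Lyz1 was at 9.39, 9.59, 9.42 and 8.996 and then 10.94, 11.39, 11.29 and 11.16, a difference of 1.84 ± 0.74 that did not pass (limma adjusted p = 0.29), and reads of the pair can be split between them. Clec4d, a C-type lectin receptor of macrophages and neutrophils, was at 8.31, 10.81, 8.84 and 7.69 and then at 13.21, 11.67, 13.17 and 11.79. It rose 11.7-fold, by 3.54 ± 0.70 (limma adjusted p = 0.0013), and it was called in 8 of 8 fits that left out a mouse. It was named after its values were seen.

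Over the list of lysosomal proteins and cathepsins the median difference was 0.51 against -0.0044 over all genes, and 16 of 17 members tested were above 0. Of the 17, 5 rose, Creg1, Ctsd, Acp5, Lamp1 and the cathepsin gene Ctsb, and none fell, beside 0.552% of all genes called higher. This list, like the others, was chosen with earlier results of these data known, so these shares are descriptive and not a test. Without replicate 3 or 4 of 3 days, or replicate 1 or 3 of 7 days, 1 of the 17 was called, without replicate 1 of 3 days 2 were, and the other 3 such fits called 4 or 5. Quantile normalization left 3 calls and equal library medians 2. Lamp1, a structural protein of the lysosomal membrane, was at 15.78, 15.70, 15.57 and 15.38 and then 16.36, 15.75, 16.19 and 16.03, with the difference 0.48 ± 0.12 (limma adjusted p = 0.031). Psap, the precursor of the saposins that help to break down sphingolipids, is on no list and was named after its values were seen. It was at 18.25, 18.66, 18.01 and 17.65 and then 19.98, 18.40, 19.35 and 18.99, a rise of 1.04 ± 0.26 (limma adjusted p = 0.028). Further called genes that were picked out after seeing the values encode parts of the proton pump that acidifies lysosomes: Atp6v1a (0.96), Atp6v1c1 (0.69), Atp6ap2 (0.95) and Atp6v0d2 (3.09). The other genes of the pump are not given here, so these values do not describe the pump as a whole. Others are the lysosomal enzyme gene Gla (1.13), the heme transporter gene Slc48a1 (1.09) and the cholesterol esterification gene Soat1 (0.82). Abca1, which exports cholesterol from cells, was at 11.51, 11.12, 10.82 and 11.31 and then 13.06, 12.995, 13.16 and 11.99, a rise of 1.61 ± 0.38 (limma adjusted p = 0.014). The plot of lysosome and macrophage genes gives each mouse in both arms.

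**Figure D1:**
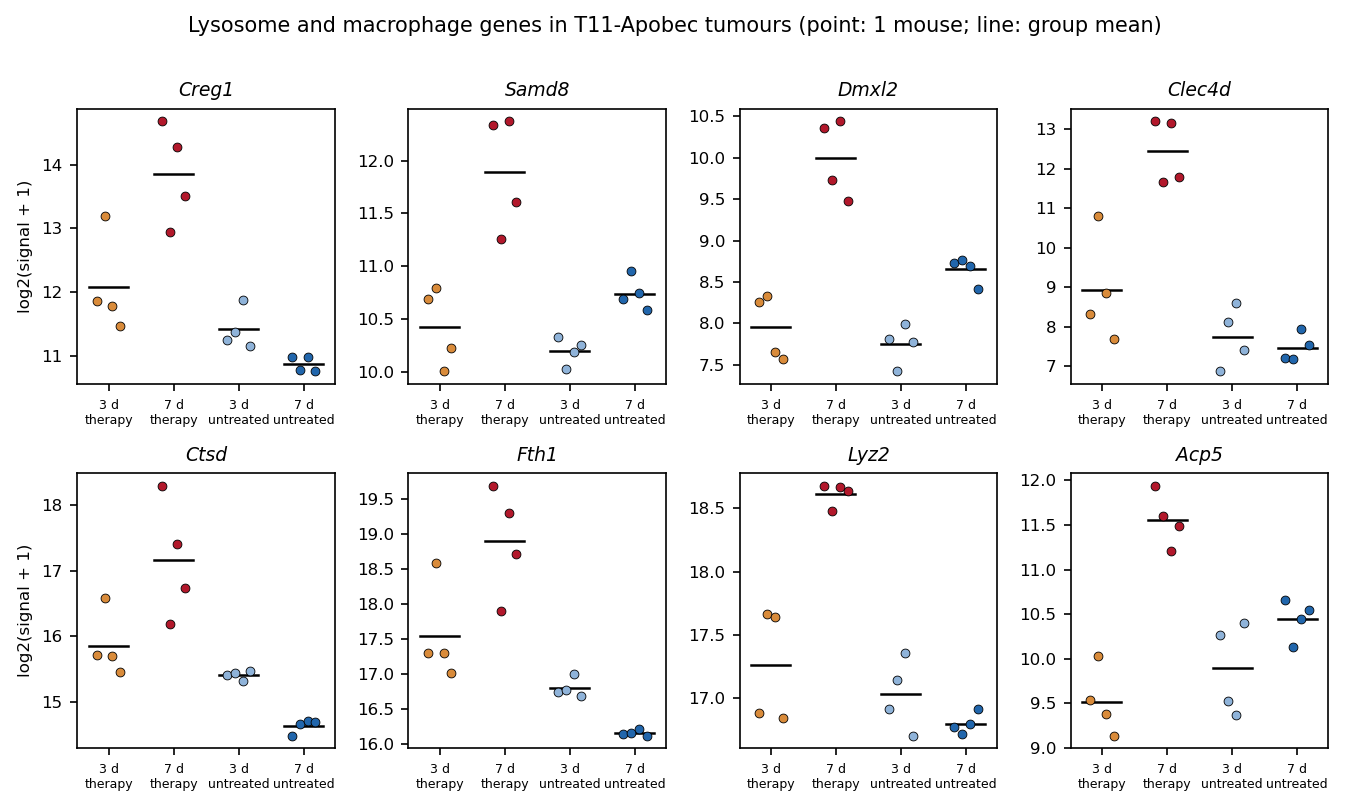
Each panel plots log2(signal + 1) of 1 gene on the vertical axis for T11-Apobec tumours at 3 and 7 days, under therapy (orange and red) and untreated (light and dark blue). Points are mice and lines are group means of 4 mice. In Samd8, Dmxl2, Clec4d, Lyz2 and Acp5 the red points lie above all orange points, while in Creg1, Ctsd and Fth1 replicate 2 of each time overlaps.

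Levels of macrophage genes are given beside these values. The signal summed over the list of macrophage identity genes was 488684, 685383, 598270 and 426488 at 3 days and 878407, 673217, 720770 and 827611 at 7 days of therapy, overlapping by 1 mouse. Without Lyz2, a sum added after the values were seen, the other 14 genes gave 367550, 477542, 393900 and 308416 and then 459336, 308783, 305647 and 420919, which overlap. All 15 members found in the table were above 0 in every treated library. Of the 15, Lyz2 rose, 9 of 15 had a difference above 0, and the list median was 0.34, or 0.13 to 0.54 without single mice (lowest without replicate 3 of 3 days). In bulk tumours, fewer cells of a type and less RNA per cell cannot be told apart, here and below. The part of macrophage number in the lysosomal genes was not tested.

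Promoters of 2 lysosomal genes that rose are shown because both hold the motif TCACGTG, the core of the CLEAR element found near many lysosomal genes. They are the 250 bases before the annotated start (RefSeq, GRCm38.p6), read 5′ to 3′ on the gene's strand, with motif letters in capitals. Ctsd is at chr7:142387828-142388077 on the minus strand and Lamp1 is at chr8:13158911-13159160 on the plus strand.
Ctsd: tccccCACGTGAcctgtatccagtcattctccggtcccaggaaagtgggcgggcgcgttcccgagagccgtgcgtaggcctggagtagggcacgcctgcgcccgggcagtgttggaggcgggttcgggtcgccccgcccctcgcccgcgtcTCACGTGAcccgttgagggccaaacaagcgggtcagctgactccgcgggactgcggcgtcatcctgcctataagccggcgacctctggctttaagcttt
Lamp1: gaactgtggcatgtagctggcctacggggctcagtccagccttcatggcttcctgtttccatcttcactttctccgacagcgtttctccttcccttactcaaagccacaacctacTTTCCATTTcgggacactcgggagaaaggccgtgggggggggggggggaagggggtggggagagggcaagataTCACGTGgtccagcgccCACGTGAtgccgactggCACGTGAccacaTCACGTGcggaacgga
Capitals also mark the letters TTTCNNTTT, the core of the interferon-stimulated response element, of which the Lamp1 window holds 1 match. Each motif was searched on both strands, and overlapping matches were kept. CLEAR cores were in 3.13% of 32851 windows, TTTCNNTTT in 9.37% and the gamma-activated site TTCNNNGAA in 7.02%. Counted by gene, which can have several windows, the shares were 3.58%, 10.8% and 8.13% of 27025 genes. Of the 14 lysosomal list members with a window, Ctsd, Lamp1 and Lgmn held the CLEAR core, which was chosen after values were seen. TTTCNNTTT was held by 4 of the 14, Ctsl, Ctss, Lamp1 and Gpnmb, and TTCNNNGAA by 0. The windows of Creg1, Acp5, Cxcl13 and Cxcr6 held none of the 3 motifs. These are matches of letters only.

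Further genes were as firm. Samd8 encodes an enzyme that makes a sphingomyelin analogue in the endoplasmic reticulum. Its levels were 10.69, 10.79, 10.00 and 10.22 at 3 days and 12.34, 11.25, 12.37 and 11.61 at 7 days, with no overlap. It rose 2.76-fold, by 1.47 ± 0.19, with the smallest limma adjusted p of the comparison, 2.312e-08. Dmxl2, a regulator of the vacuolar proton pump, was at 8.26, 8.33, 7.65 and 7.57 and then 10.36, 9.73, 10.44 and 9.48, all mice at 7 days being higher. The rise was 2.05 ± 0.33, 4.15-fold (limma adjusted p = 2.138e-05). Dnmt3a, a DNA methyltransferase, was at 11.10, 11.67, 10.72 and 10.92 and then 12.82, 11.98, 12.80 and 12.24, a rise of 1.36 ± 0.24 (limma adjusted p = 2.515e-04). Its antisense gene Dnmt3aos was called as well, at 3.46, and reads of the pair cannot be told apart without knowledge of strand. Untreated, the differences were 0.54 for Samd8, 0.90 for Dmxl2 and 0.39 for Dnmt3a, none called (limma adjusted p = 0.058, 0.067 and 0.32). For Dmxl2 the change under therapy minus the untreated change was 1.15 ± 0.46, which did not pass (limma adjusted p = 0.42).

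Smaller rises with the same steadiness were seen in Nceh1 (1.27 ± 0.22), which hydrolyses cholesterol esters, and Pgap1 (1.35 ± 0.24), which remodels lipid anchors of proteins. Rnf128, a ubiquitin ligase known for restraining T cell activation, rose by 2.15 ± 0.39, with replicate 2 of 3 days (9.82) and replicate 2 of 7 days (9.81) overlapping. Untreated, Nceh1 differed by 0.56, Pgap1 by 0.81 and Rnf128 by -0.19. Of the 15 genes called in all fits without a mouse, 7 more were named after their values were seen: Gpr162, Rilpl2, Cipc, Atp6ap2, Wdr91, Lmbrd1 and Vamp4. Their rises ran from 0.79 (Vamp4) to 1.79 (Gpr162). Untreated, the differences in the order named were -0.35, -0.02, 0.34, 0.45, -0.13, 0.36 and 0.29. Wdr91 and Rilpl2 act in endosome and lysosome traffic, Lmbrd1 exports cobalamin from lysosomes, and Vamp4 is a fusion protein of the Golgi and endosomes. Hif1a, the oxygen-regulated transcription factor, rose by 1.24 ± 0.28, the chemokine receptor gene Cxcr4 by 1.24 ± 0.29, the kinase gene Sgk1 by 1.26 ± 0.31 and Cd38, an ectoenzyme of activated immune cells, by 1.57 ± 0.34. Each of these 4 was called in 4 of 8 fits that left out a mouse. The stress cytokine gene Gdf15 was at 6.90, 9.02, 5.40 and 6.62 and then 10.62, 7.32, 9.78 and 9.58, overlapping through replicate 2 of each time, and rose by 2.34 ± 0.54 (limma adjusted p = 0.012). Cpeb4 (1.54), Fnip2 (1.15) and Gpr137b (1.16) complete the leading genes that were higher.

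Of the T cell and chemokine genes described here, Cxcl13, Cxcr6 and Il7r rose and most others did not pass. The largest fold was that of Cxcl13, a chemokine that draws B cells, at 3.72, 6.02, 5.47 and 3.84 at 3 days and 8.55, 10.66, 8.24 and 9.84 at 7 days. The groups did not overlap, and Cxcl13 rose by 4.56 ± 1.22, 23.6-fold (limma adjusted p = 0.041), called in 1 of 8 fits that left out a mouse. In untreated mice Cxcl13 was at 6.77, 7.95, 7.66 and 9.86 at 3 days, above the treated mean of 4.76. At 7 days it was at 6.74, 7.14, 7.46 and 7.61 untreated. The change under therapy minus the untreated change was 5.38 ± 1.72, which did not pass (limma adjusted p = 0.22). Cxcr6, a chemokine receptor of resident and effector T cells, was at 7.35, 7.79, 8.26 and 6.504 and then 9.83, 10.89, 9.90 and 9.91. It rose by 2.66 ± 0.69, 6.31-fold (limma adjusted p = 0.036), also called in 1 of 8 such fits. Il7r, the receptor for the T cell survival factor IL7, was at 8.63, 9.27, 7.14 and 7.38 and then 11.19, 10.08, 12.13 and 9.87, a rise of 2.72 ± 0.55, 6.58-fold (limma adjusted p = 0.0023), called in 5 of 8. It was named after its values were seen. Mice were not ordered in Il7r as in the summed signal of the T cell receptor list. Replicate 3 of 3 days was lowest in Il7r and highest in that sum (8688). Replicate 3 of 7 days was highest in Il7r and lowest in the sum (13301). The T cell receptor segment Trbv19 was called at 2.98.

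Cd8a, a chain of the co-receptor of killer T cells, was at 7.22, 8.57, 7.16 and 6.73 at 3 days and 10.72, 11.67, 10.47 and 10.70 at 7 days. All 4 mice at 7 days were higher, yet the difference of 3.47 ± 0.98, 11.1-fold, had a limma adjusted p of 0.062. With the spread taken from the 8 treated libraries alone it was 0.033. Untreated levels of Cd8a were 8.09, 7.45, 10.05 and 8.66 at 3 days and 9.25, 8.26, 8.71 and 8.11 at 7 days. The Cd8a change under therapy minus the untreated change was 3.45 ± 1.39, which did not pass (limma adjusted p = 0.43). Pdcd1, which encodes PD1, was at 7.69, 7.99, 9.15 and 6.61 and then 10.10, 10.40, 10.21 and 9.79, a difference of 2.27 ± 0.72 (limma adjusted p = 0.12). Cd4 was at 8.84, 9.23, 9.83 and 8.16 and then 10.74, 10.30, 10.21 and 9.79, overlapping by 1 mouse, with a difference of 1.25 ± 0.52 (adjusted p = 0.32). Ctla4 differed by 1.84 ± 0.75 (adjusted p = 0.30) and Cd3e by 1.57 ± 0.85 (adjusted p = 0.54). Foxp3, the factor of regulatory T cells, differed by -0.12 ± 0.48, with 6.68 to 7.77 at 3 days and 7.05 to 7.78 at 7 days.

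All 17 genes of the T cell receptor complex list were above 0 and none passed, beside 0.715% of all genes, with a median of 1.57 against -0.0044 over all genes tested. The summed signal of these 17 genes was 5951, 8174, 8688 and 4213 at 3 days and 17643, 19639, 13301 and 13798 at 7 days, with no overlap. The list of CD8 and cytotoxic genes had a median of 0.90, with 12 of 16 above 0 and none called. Gzmb, a granzyme, was at 13.05, 13.09, 11.59 and 11.21 and then 12.65, 11.91, 13.65 and 12.10, a difference of 0.34 ± 1.06. Prf1, perforin, differed by 0.54 ± 1.06, and its highest mouse was replicate 3 at 7 days, at 12.56 against 8.84 to 10.72 in the other 7. Ms4a1, a surface protein of B cells, differed by 0.39 ± 1.15, and the B cell list had a median of -0.09 with none of 14 called, or -0.53 without replicate 1 of 3 days and 0.61 with 1 called without replicate 2. The plot of T cell genes places these values beside the untreated arm.

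**Figure D2:**
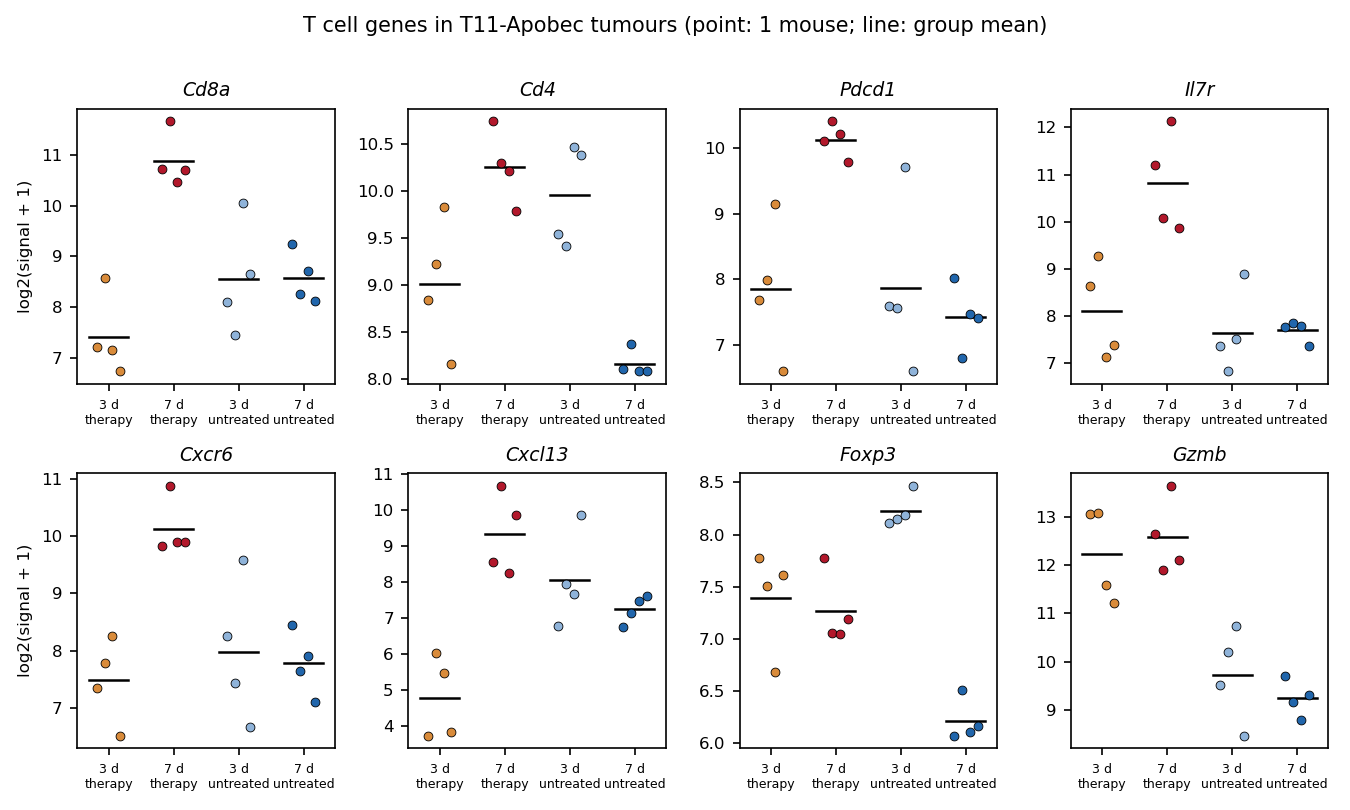
Each panel plots log2(signal + 1) of 1 gene for T11-Apobec tumours at 3 and 7 days, under therapy (orange and red) and untreated (light and dark blue). Points are mice and lines are means of 4. Cxcl13 is a chemokine gene and the others were grouped as genes of T cells, though bulk tumours do not show which cells express them. Cd8a, Pdcd1, Il7r, Cxcr6 and Cxcl13 have all red points above all orange points, while Foxp3 and Gzmb under therapy overlap.

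No interferon gamma response gene on the list was called. Ifng itself was at 9.96, 11.73, 9.11 and 9.13 at 3 days and 9.66, 8.83, 9.97 and 9.57 at 7 days, a difference of -0.48 ± 1.10. The interferon gamma response list had a median of -0.32, with 3 of 27 members above 0 and none called, beside 0.715% of all genes. The mean over its genes was 13.24 to 13.86 in treated mice at 3 days and 13.22 to 13.66 at 7 days, beside 11.34 to 13.11 and 11.72 to 12.33 in untreated mice. Cxcl9, a chemokine induced by interferon gamma, was at 15.45, 15.82, 16.02 and 15.21 and then 15.11, 15.54, 15.0002 and 15.46. Cd274, which encodes the PD1 ligand, differed by 0.90 ± 0.67 and the second ligand gene Pdcd1lg2 by 0.83 ± 1.09. Rtp4, a gene of the type I interferon response that was named after its values were seen, was at 12.21, 12.27, 12.38 and 12.01 and then 11.11, 11.22, 11.33 and 11.25. These groups did not overlap, and the difference of -0.99 ± 0.54 was called with the spread of the 8 treated libraries alone but not over all groups (limma adjusted p = 0.55). The type I interferon list had a median of -0.27, with 4 of 17 above 0, and antigen presentation lists stood near all genes, at -0.08 for class I and 0.11 for class II.

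Other lists gave few calls. Nos2 and Arg1, which compete for arginine in myeloid cells, differed by 1.78 ± 0.80 and 0.71 ± 0.99, neither called. The NK cell list had a median of -0.63 and the mast cell list -0.77 (-0.44 without replicate 2 and -1.18 without replicate 3 of 3 days), with none called. The mitosis list had a median of -0.40, 1 of 20 members being above 0, which was -0.11 without replicate 1 and -0.72 without replicate 2 of 7 days, and Mki67, a marker of dividing cells, was at 12.12, 11.35, 12.37 and 12.43 and then 10.81, 13.14, 11.52 and 12.01, which is a wide spread at 7 days. Collagens had a median of -0.42 (-0.18 without replicate 1 of 7 days) and the mesenchymal tumour list -0.11 (-0.24 without replicate 2 of 7 days), with none of 17 and 15 called. Over the 50 T11 line markers the median was -0.48 and none was called. Apobec3, the endogenous mouse member of the APOBEC family, was at 12.26, 12.30, 12.41 and 12.32 and then 11.75, 11.81, 11.34 and 11.92, all 4 lower at 7 days. Its difference of -0.62 ± 0.22 did not pass (limma adjusted p = 0.20), and in untreated mice it fell by 0.65 ± 0.22 (adjusted p = 0.049). Of the follicular helper genes, Cxcr5 differed by -0.12 ± 0.83 and Bcl6 by 0.20 ± 0.28. The plot of list medians sets both arms side by side.

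**Figure D3:**
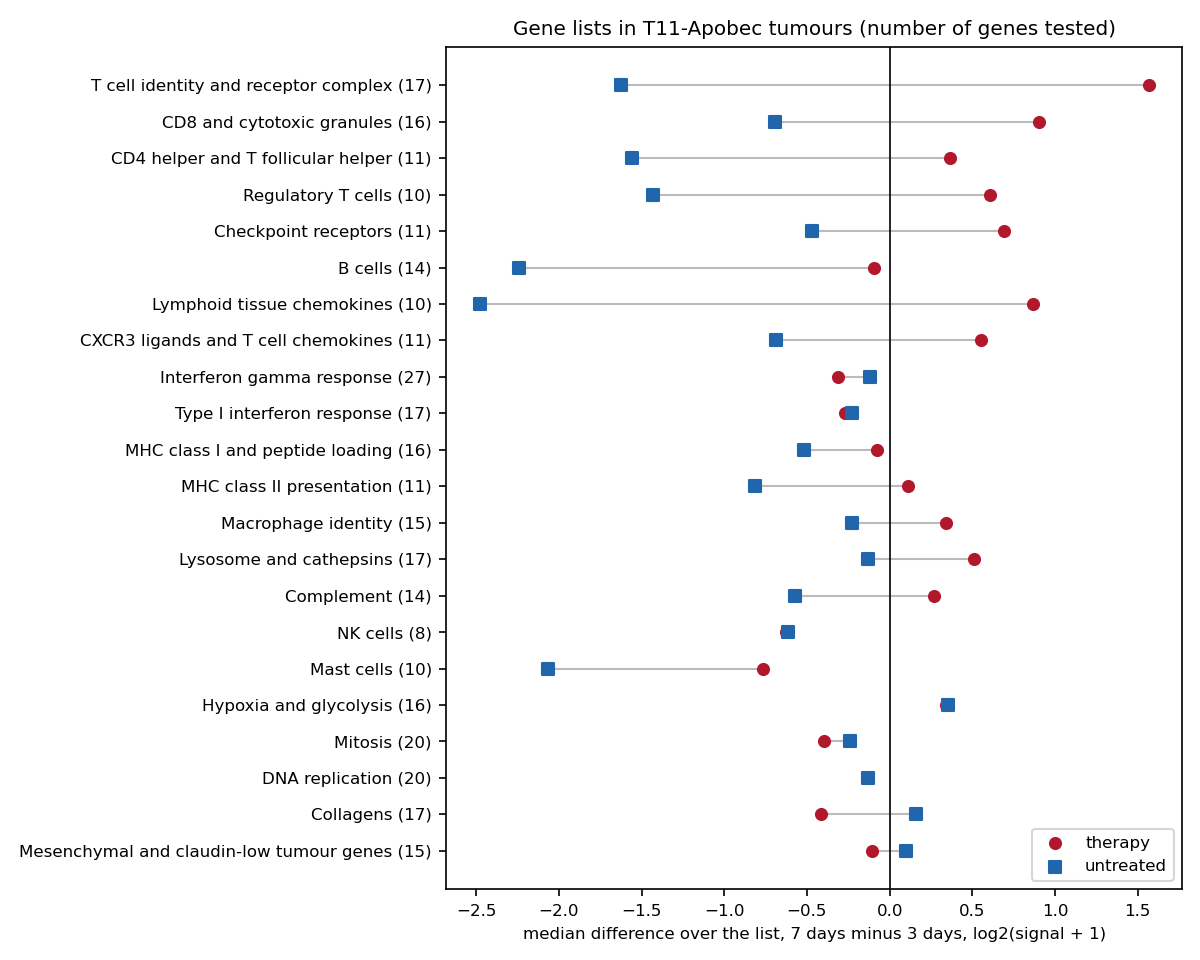
The horizontal axis gives the median difference, 7 days minus 3 days in log2(signal + 1), over the tested genes of each list in T11-Apobec tumours under therapy (red circles) and untreated (blue squares), with the number of genes in brackets. T cell lists lie above 0 under therapy and below 0 untreated, while interferon lists lie slightly below 0 in both arms.

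Among the named genes that fell, Fcrls had the largest change. It is an Fc receptor-like gene of macrophage subsets, and was at 10.93, 7.42, 9.46 and 11.84 at 3 days and at 6.66, 6.51, 5.81 and 6.496 at 7 days. The 4 later mice were close together and below all earlier mice. Fcrls fell by 3.55 ± 0.72, 11.7-fold (limma adjusted p = 0.0022), called in 7 of 8 fits that left out a mouse. Atoh8, a transcription factor gene named after its values were seen, was at 10.11, 9.79, 10.33 and 10.13 and then 8.08, 8.37, 7.99 and 8.48, a fall of 1.86 ± 0.50 (adjusted p = 0.042) that no fit without a mouse called, though the 8 libraries alone did. Fscn1, an actin-bundling gene of mature dendritic and migrating cells, was at 13.93, 13.97, 14.45 and 14.66 and then 12.99, 13.87, 13.26 and 13.65, a fall of 0.81 ± 0.20 (adjusted p = 0.021). Ilk, a kinase at sites of adhesion to matrix, fell by 0.63 ± 0.13, from 12.81 to 13.30 at 3 days to 12.24 to 12.64 at 7 days. The others were Emid1 (-1.60), Wbscr27 (-1.23), Rpusd1 (-0.83), Nrm (-0.81), Plp2 (-0.80), Dynlrb1 (-0.77), Cenpt (-0.68), Bak1 (-0.64), Pik3r2 (-0.63), Pqbp1 (-0.61), Csnk2b (-0.56) and Ubl7 (-0.54).

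Untreated tumours of the model changed in more genes over the same days. In them 1515 genes, 7.27% of those tested, differed between 7 days and the mice labelled 3 days, 571 higher (2.74%) and 944 lower (4.53%), and the median over all genes was -0.10. The count was 508 to 1072 when single mice were left out, 598 without replicate 4 of 3 days. With library medians set equal the median over all genes moved from -0.10 to 0.05 and the split to 1553 higher and 360 lower. The 2 steps share no samples but share their flow cells. Of the 115 genes that rose under therapy, 23 (20%) also rose untreated, beside 2.74% of all genes. Of the 34 that fell, 18 (52.9%) also fell untreated, beside 4.53%. The 42 genes called in both, of which 1 moved in opposite directions, were 28.2% of the therapy calls and 2.77% of the untreated calls. Plp2, Bak1, Csnk2b, Dynlrb1, Ubl7, Pqbp1, Nrm, Rpusd1, Cenpt and Ilk fell in both arms. Pgap1 rose in both, by 1.35 under therapy and by 0.81 untreated.

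The step under therapy was then tested directly against the untreated step. In 36 genes (0.173%) they differed, 35 with the larger value under therapy, and 1686 genes had an unadjusted p under 0.05. Of the 36, 14 were also called in the therapy step itself. A larger value under therapy can also come from a fall in untreated mice. Creg1 was the firmest: in untreated mice it was at 11.25, 11.37, 11.88 and 11.15 and then 10.98, 10.77, 10.98 and 10.75, so that the steps differed by 2.32 ± 0.36 (limma adjusted p = 4.652e-05). It alone was called in all 16 fits that left out a mouse, and in all 22 settings tried its adjusted p was at most 0.0070. Pla2g2d, a secreted phospholipase of lymphoid tissue that was named after its values were seen, went under therapy from 6.36, 7.84, 5.94 and 6.15 to 9.14, 9.41, 8.56 and 8.91, and untreated from 8.08, 6.83, 6.97 and 9.19 to 4.43, 4.56, 4.36 and 5.37. The 2 arms thus moved in opposite directions, with a difference of 5.52 ± 1.09 (adjusted p = 0.013), which was 5.05 with an adjusted p of 0.058 without untreated replicate 4 of 3 days. Ninj1, a membrane protein that ruptures dying cells, differed by 2.38 ± 0.48 and was called in 14 of 16 fits without a mouse. Hvcn1, a proton channel of phagocytes, differed by 2.60 ± 0.55 and Gpr162 by 2.14 ± 0.45, each called in 12 of 16. Ctsd differed by 2.07 ± 0.45 (adjusted p = 0.015, 10 of 16) and Fth1 by 2.00 ± 0.45 (adjusted p = 0.026, 5 of 16).

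T cell and lymphoid genes also differed between the steps, and several of these calls were lost without 1 untreated mouse. Cd4 fell by 1.79 ± 0.52 untreated (adjusted p = 0.022), from 9.55, 9.42, 10.47 and 10.39 to 8.11, 8.38, 8.09 and 8.08, and the steps differed by 3.04 ± 0.74 (adjusted p = 0.045). For Lat, an adaptor of the T cell receptor, they differed by 3.77 ± 0.91 (adjusted p = 0.044). For Ccl19, a chemokine of lymphoid tissue, untreated levels were 3.60, 3.97, 4.70 and 9.70 and then 0.00, 0.83, 0.98 and 0.00, and the steps differed by 7.27 ± 1.80 (adjusted p = 0.047). Untreated replicate 4 of 3 days was high in Ccl19, and its summed B cell signal was 16762 against 2627 to 2710 in the other 3. Without it the adjusted p of these differences became 0.12 for Cd4, 0.12 for Lat and 0.26 for Ccl19, while Creg1 kept 5.449e-05 and Ninj1 0.028. Without treated replicate 1 of 7 days Creg1 had 0.0034 and Pla2g2d 0.020. Over the T cell receptor list the median difference of the steps was 3.05, 17 of 17 above 0 and 1 called, and over lymphoid chemokines 3.50, beside 0.06 over all genes, which was -0.03 after quantile normalization and -0.11 with equal library medians. For adipocyte markers the median difference of the steps was 3.41, with 13 of 13 above 0 and none called, from -0.05 under therapy and -2.45 untreated. Their summed signal was 4821 to 12280 and then 5777 to 8473 under therapy, and 7612 to 12735 and then 2137 to 3581 untreated, and their part in the differences above was not tested. Summed T cell signal in untreated mice was 5937 to 12681 and then 2694 to 3626. Over the lysosomal list the median difference of the steps was 0.85, with Creg1 and Ctsd called. The count of 36 was 3 to 70 over the 16 fits without a mouse, and only those without untreated replicate 2 of 3 days (36) and treated replicate 4 of 7 days (28) kept it within 1.5 times.

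Against the same step in T11, 65 genes (0.312%) differed, 60 with the larger value in T11-Apobec, and 1701 had an unadjusted p under 0.05. In T11 itself only 2 genes (0.00959%) were called, both lower, H2-Aa and H2-Ab1, chains of a class II molecule, and H2-Aa fell by 3.26 there. Pdcd1 went the other way in T11, from 6.79, 6.58, 8.43 and 5.89 to 3.78, 4.41, 4.42 and 4.56, and the steps differed by 4.89 ± 1.02 (limma adjusted p = 0.0099), called in 14 of 16 fits without a mouse. The 2 that lost it left out replicate 4 of T11-Apobec or replicate 3 of T11, both at 3 days. Il7r differed by 3.97 ± 0.78 (adjusted p = 0.0039) and Creg1 by 2.02 ± 0.36 (adjusted p = 0.0017), both called in 16 of 16. Cxcl13 differed by 6.72 ± 1.72 (adjusted p = 0.048) and was called in 2 of 16. Fcrls was higher at 7 than at 3 days in T11 by 1.37 and differed by -4.91 ± 1.02 (adjusted p = 0.0099). Of the 17 T cell receptor genes, 3 were called, Cd3d (4.77), Cd3g (4.57) and Cd6 (3.90), each in 3 or 4 of 16 fits. The list median was 3.43, beside -0.01 over all genes. A fit with a flow cell term called 3 genes, and fits without single mice called 6 to 121.

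Against T11-UV no gene differed by limma, 0% of those tested, while 1734 had an unadjusted p under 0.05. T11-UV changed on its own in 905 genes (4.34%) between 3 and 7 days. Cd8a there was at 7.51, 5.41 and 8.16 and then 10.24, 10.43, 9.93 and 10.53, and the steps differed by 0.21 ± 1.45. Fcrls fell in T11-UV by 3.18, and the steps differed by -0.37 ± 1.06. Creg1 rose there by 1.21 and the steps differed by 0.57 ± 0.38. Samd8 differed by 1.11 ± 0.28 (limma adjusted p = 0.12) and Clec4d by 2.20 ± 1.02 (adjusted p = 0.56). Intervals of this width do not show that the models act alike, and without replicate 2 of T11-UV at 3 days 425 genes were called, without replicate 3 of that group 18, and without replicate 3 of T11-UV at 7 days 13. Against KPB25L 869 genes differed (4.17%), among them Clec4d (4.00), Il7r (3.01), Creg1 (1.19), Samd8 (1.08) and Fcrls (-3.73), but a fit with a flow cell term called 2. Pdcd1 in KPB25L was at 5.14, 8.07, 5.89, 8.31 and 7.93 and then 10.25, 6.84, 7.03 and 6.76, and the steps differed by 1.61 (adjusted p = 0.36). These comparisons all use the same 8 T11-Apobec libraries, and they are given side by side only. The plot of 4 models gives each mouse.

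**Figure D4:**
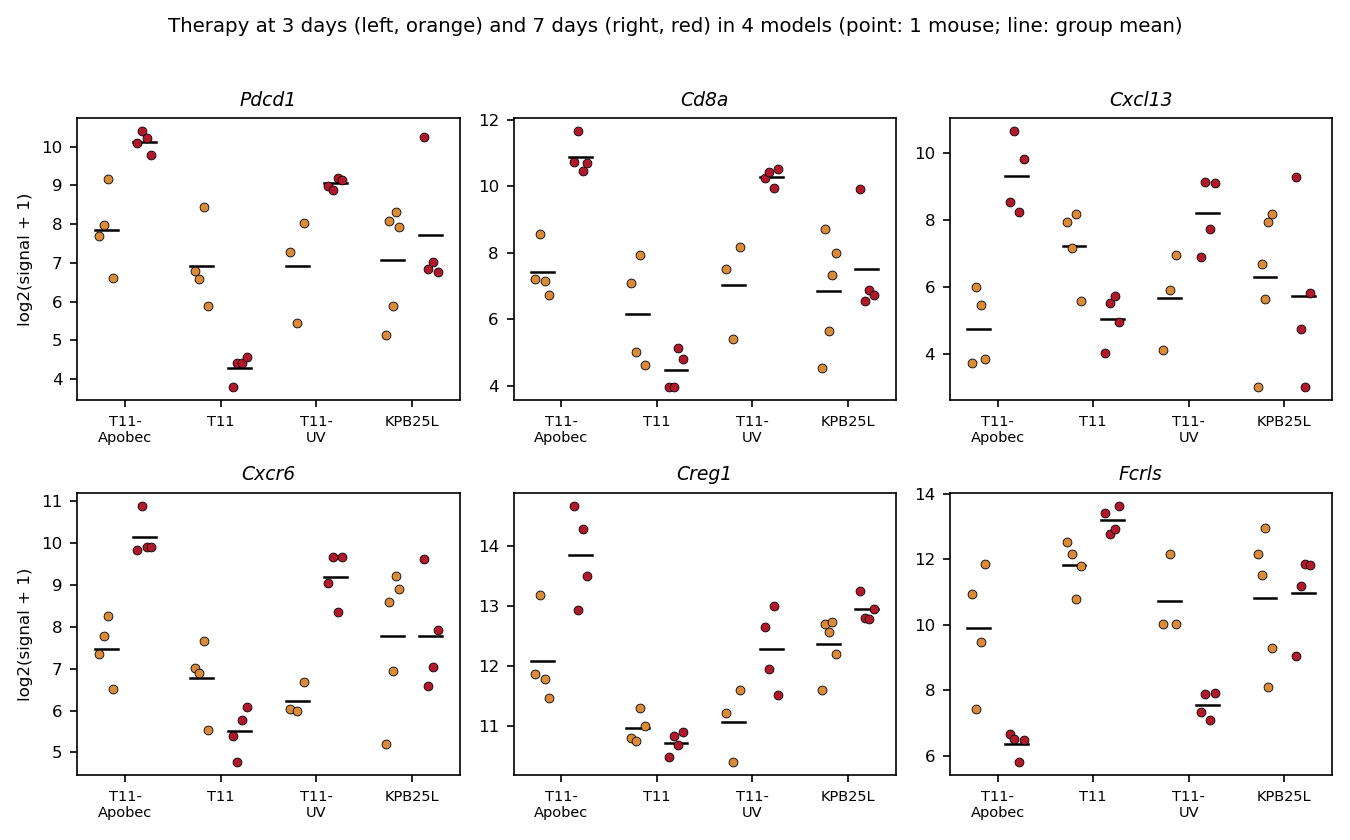
Each panel plots log2(signal + 1) of 1 gene in treated mice of 4 models, with 3 days at the left (orange) and 7 days at the right (red) of each pair. Points are mice and lines are group means. Pdcd1, Cd8a and Cxcr6 are higher at 7 days in all T11-Apobec and T11-UV mice and have lower means at 7 days in T11, while Fcrls shows the opposite order.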

How the data were processed

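The authors deposited a gene signal scaled by the upper quartile of each library, per the file headers, and the upper quartile of genes above 0 was 2037.3 to 2048.79 in the T11-Apobec libraries, over the entries kept. Per the submitters' processing notes, STAR, Salmon, SAMtools and Picard were used with mm10, with settings not given in the sources used here. Within 0.01 reads, 48.9 to 75.3% of the values of the 8 libraries were whole reads, so the values were kept as signal and no count test was run. Of 45724 entries, 39 with date names and 28 with repeated symbols were left out.

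Signal was analysed as log2 after adding a pseudocount of 1. Of the genes above 0 in at least 4 samples, the 20848 with the highest means (the upper 2/3) were tested with limma 3.58.1 (R 4.3.3), with 1 mean per group, 47 groups, 192 samples and 145 residual degrees of freedom. The 2 libraries of 1 mouse were averaged. Benjamini-Hochberg adjustment covered all genes tested, and calls were made at 0.05. Positions came from GENCODE M21 (GRCm38).

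The members, the 49 gene lists and the T11 line markers were chosen with earlier results of these data known. Named genes were up to 15 per direction with the largest called change under therapy, a mean above the median and no overlap of groups, up to 10 per direction for the difference from the untreated step, up to 3 called members per list in 3 comparisons (therapy step, and its difference from the untreated and the T11 step), and a panel of 22 genes. Genes named after their values were seen are marked so, and some results are not reported here. Alternatives were another pseudocount, no filter on mean, fewer groups, 2 other normalizations, flow cell as a term and leaving out each mouse.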

Additional observations from a re-analysis of the deposited data

Results flagged for a closer look

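In 15 of 348 groups of 4 mice, a single mouse lay far from the other 3 (by Dixon's ratio), and chance gives about 1 in 20. Among untreated mice at 3 days the level of that mouse was 9.32 for Atoh8, 8.31 for Ctla4, 8.06 for Fcrls and 12.69 for Hif1a. Among treated mice at 7 days the level of that mouse was 11.99 for Abca1, 11.20 for Cd3g, 10.89 for Cxcr6 and 10.37 for Pgap1. Among untreated mice at 7 days the level of that mouse was 8.38 for Cd4, 12.66 for Csnk2b, 5.16 for Gdf15, 10.80 for Ninj1, 9.46 for Nrm, 13.74 for Plp2 and 11.19 for Ubl7. 

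The 7 minus 3 day step of treated T11-Apobec tumours differed from another step in the genes below (limma, adjusted over all genes tested), where each value is the difference of the steps. Against the untreated step of the model it was larger for Bcl11b (3.67), Ccl19 (7.27), Cd4 (3.04), Creg1 (2.32), Ctsd (2.07), Ephx1 (2.14), Fth1 (2.00), Gdf15 (3.14), Gpr162 (2.14), Hvcn1 (2.60), Il11ra1 (2.75) and Lat (3.77). It was also larger for Mgst1 (3.05), Ninj1 (2.38), Pla2g2d (5.52), Psrc1 (1.87), Rilpl2 (1.50), Rnf128 (2.34), Sit1 (3.63) and Wdr91 (1.03). Against treated T11 it was larger for Acp5 (2.98), Atp6ap2 (1.32), Bcl11b (3.98), Cd38 (2.02), Cd3d (4.77), Cd3g (4.57), Cd6 (3.90), Clec4d (4.31), Creg1 (2.02), Cxcl13 (6.72), Cxcr6 (3.93) and Dmxl2 (1.94). It was also larger for Gpr162 (2.43), H2-Aa (3.80), Hvcn1 (2.56), Il7r (3.97), Lmbrd1 (0.98), Nceh1 (1.33), Pdcd1 (4.89), Psap (1.55), Rilpl2 (1.90), Rnf128 (2.40), Samd8 (1.36) and Sit1 (3.48). It was also larger for Vamp4 (0.94) and Wdr91 (1.00). Against treated T11 it was smaller for Fcrls (-4.91), Ilk (-0.77) and Pik3r2 (-1.06). Against treated KPB25L it was larger for Abca1 (1.80), Atp6v0d2 (3.63), Cd38 (1.63), Cipc (1.12), Clec4d (4.00), Cpeb4 (2.00), Creg1 (1.19), Dmxl2 (1.82), Dnmt3a (1.80), Fnip2 (1.59), Gdf15 (2.48) and Gpr162 (1.68). It was also larger for Hif1a (1.96), Il7r (3.01), Lmbrd1 (1.10), Nceh1 (0.95), Pgap1 (1.33), Rilpl2 (1.24), Samd8 (1.08), Vamp4 (0.65) and Wdr91 (1.26). Against treated KPB25L it was smaller for Cenpt (-0.83), Csnk2b (-0.66), Dynlrb1 (-1.09), Emid1 (-1.86), Fcrls (-3.73), Ilk (-0.88), Pik3r2 (-0.86), Plp2 (-1.20), Pqbp1 (-0.78) and Wbscr27 (-1.99). The cause of these differences was not tested.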

How the results depend on the processing

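For the therapy step, the untreated step and the differences from the untreated and the T11 step, no called difference of a named gene reversed under any alternative. Against T11-UV and KPB25L single genes were not followed through the alternatives, only counts. For the therapy step, 149 genes became 242 with a pseudocount of 10, 1888 with only the T11-Apobec groups in the fit, 6 with only the 8 treated libraries, and 22 to 173 without single mice. Of the 149, 140 were shared with the pseudocount of 10, 132 with no filter, 149 with the T11-Apobec groups, 3 with the 8 libraries, 110 with quantile normalization and 106 with equal library medians. For the untreated step, 1515 became 6028 with only the T11-Apobec groups and 508 to 1072 without single mice. Its split of 571 higher and 944 lower became 1043 and 787 with quantile normalization and 1553 and 360 with equal library medians. For the difference of these steps, 36 became 82 with a pseudocount of 10, 71 with no filter, 613 with only the T11-Apobec groups, 19 with quantile normalization, 7 with equal library medians, 79 with flow cell as a term and 3 to 70 without single mice. Against T11, 65 became 147 with a pseudocount of 10, 1980 with only the groups of both models, 38 with quantile normalization, 32 with equal library medians, 3 with flow cell as a term and 6 to 121 without single mice. Against T11-UV, 0 became 22 with a pseudocount of 10, 23 with no filter, 67 with only the groups of both models and 0 to 425 without single mice. Against KPB25L, 869 became 1998 with only the groups of both models, 2 with flow cell as a term and 150 to 1855 without single mice, the lowest without KPB25L replicate 2 of 7 days. The causes were not tested.

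A flow cell term could not be estimated for the therapy step, the untreated step or the comparison with T11-UV. No paired analysis was possible because the mouse numbers in the labels, which some KPB25L libraries lack, are not shared between the groups compared. Depth differed between libraries, as given above. The counts behind low values are not known. List medians without single mice were added after the data were seen.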

Other observations

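Some gene groups not described above had medians away from that of all genes, with none of their members called under therapy. Genes of mammary luminal epithelium and milk had a median difference of -1.16 between 7 and 3 days of therapy, with 2 of 14 above 0. It was -0.29 without replicate 3 of 7 days and -2.11 without replicate 3 of 3 days, and -1.92 in untreated mice. Genes of red blood cells had a median of 0.45, with 7 of 8 above 0, which was 0.24 without replicate 1 of 7 days and 0.74 without replicate 3 of 3 days. Hypoxia and glycolysis genes had medians of 0.34 under therapy and 0.35 untreated, with 13 of 16 above 0 in both arms, and these were 0.21 and 0.16 without replicate 3 of 3 days of the arm. Plasma cell genes had a median of 0.41 under therapy, with 13 of 15 above 0, which was 0.16 without replicate 1 of 7 days and 1.10 without replicate 2 of 3 days. Untreated, their median was -2.82 and 4 fell, but without replicate 4 of 3 days it was -1.32 and 1 fell, and without replicate 1 of 7 days none did. The gene Tnfsf15, which encodes a cytokine acting on T cells, rose by 3.05 under therapy, and was picked out after its value was seen.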
